A study of Drosophila melanogaster with 3 samples.

Results

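The 10 genes described here encode proteins that work at chromatin domain borders and promoters of Drosophila melanogaster. They were Chro, pita, Cp190, Dref, BEAF-32, su(Hw), CTCF, M1BP, mod(mdg4) and Trl, taken by name, 10 of the 13945 protein-coding genes on the 6 chromosome arms. Chromatin immunoprecipitation followed by sequencing was measured in whole embryos of both sexes, collected between 0 and 14 h of development. All 3 biological replicates formed 1 group, from a fly line with a stable transgene for the CG17186 protein carrying GFP at its C-terminus, and an antibody to GFP recovered it. Chromatin was sonicated to fragments of 200 to 800 bp. There was no second group, and the possible control named in the labels was not analysed here. The tagged copy comes from a transgene, and each value averages all cells of the embryos.

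Each gene was asked whether the tagged protein was recovered at its transcription start sites (TSSs). A gene was called bound if at least 1 of its TSSs had a peak summit no more than 500 bp away. The thresholded list that the authors made from all replicates, called the reproducible set, held 3814 peaks. The pooled list held 23428 peaks, and the lists of replicates 1, 2 and 3 held 30000, 26139 and 30000, background included. The reproducible set was the 3814 pooled peaks with the highest signal, with a lowest value of 109.3. Signal is the peak score the authors deposited, on the scale of an unnamed caller. Between replicates it is given relative to the median of the same replicate over the 3758 reproducible peaks found in all 3, so that 1 is a typical shared peak. Without read counts in the files, the depth behind each value is unknown.

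Insulators are DNA elements that separate neighbouring chromatin domains, and in flies many of them lie at promoters of housekeeping genes. DNA-binding proteins such as su(Hw), CTCF, BEAF-32 and pita recognise these elements by sequence and recruit cofactors, among them Cp190, mod(mdg4) and Chro. Dref, M1BP and Trl bind short words in promoters and also occur at domain borders.

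A selection of promoters is shown first, from the highest mean signal (Chro) to the lowest (M1BP), with intronic summits of mod(mdg4) and Trl. The promoters of pita, BEAF-32, su(Hw) and Trl are not shown. Sequences come from the RefSeq copy of the dm6 reference assembly. All are read 5′ to 3′ on the minus strand, that of Chro, Cp190, Dref, CTCF, M1BP, mod(mdg4) and Trl. Capitals mark a searched word on either strand: TATCGATA, the Dref site, ATCGATAG, which overlaps it by 7 bases, AACAGCAC, CANCNCTA or CAGGGCTG. The windows between paired TSSs are chr3L:22878984-22879089 for Chro and Ssl1, chr3R:15275234-15275522 for Cp190 and CG4338 (with 7 bp inside Cp190), and chr2L:9967229-9967313 for Dref and RpL13. The windows from a TSS to 100 bp upstream are chr3L:7356713-7356813 for CTCF, chr3R:8731698-8731798 for M1BP and chr3R:21377401-21377501 for mod(mdg4). The internal windows are chr3R:21359759-21359859 (A) and chr3R:21365488-21365609 (B) in mod(mdg4), and chr3L:14759444-14759544 in Trl.
Chro and Ssl1: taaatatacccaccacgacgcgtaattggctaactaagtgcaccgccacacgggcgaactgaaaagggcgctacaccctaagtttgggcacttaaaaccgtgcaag
Cp190 and CG4338: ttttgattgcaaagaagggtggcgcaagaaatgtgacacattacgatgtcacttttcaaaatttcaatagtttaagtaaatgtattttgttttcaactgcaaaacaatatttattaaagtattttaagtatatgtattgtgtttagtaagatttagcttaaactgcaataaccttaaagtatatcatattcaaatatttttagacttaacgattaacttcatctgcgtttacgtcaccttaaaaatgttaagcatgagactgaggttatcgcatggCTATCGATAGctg
Dref and RpL13: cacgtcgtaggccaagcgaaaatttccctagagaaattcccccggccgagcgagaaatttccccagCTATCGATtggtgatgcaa
CTCF: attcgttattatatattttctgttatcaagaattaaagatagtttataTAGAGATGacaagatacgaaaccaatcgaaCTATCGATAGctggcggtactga
M1BP: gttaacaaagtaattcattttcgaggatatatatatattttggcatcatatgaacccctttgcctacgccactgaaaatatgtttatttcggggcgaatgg
mod(mdg4) first promoter: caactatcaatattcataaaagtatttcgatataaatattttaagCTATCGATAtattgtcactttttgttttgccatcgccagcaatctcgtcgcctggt
mod(mdg4) internal A: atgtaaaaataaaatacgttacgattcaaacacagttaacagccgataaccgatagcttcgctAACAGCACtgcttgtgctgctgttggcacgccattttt
mod(mdg4) internal B: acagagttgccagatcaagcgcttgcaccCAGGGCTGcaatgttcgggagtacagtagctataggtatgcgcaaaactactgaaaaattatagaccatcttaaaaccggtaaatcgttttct
Trl intron: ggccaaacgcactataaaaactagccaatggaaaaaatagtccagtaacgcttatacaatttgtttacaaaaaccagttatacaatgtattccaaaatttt
The word TATCGATA or ATCGATAG stood in the Cp190, Dref, CTCF and first mod(mdg4) windows. The CTCF window also held CANCNCTA, on the strand opposite to that shown. AACAGCAC stood in internal window A and CAGGGCTG in internal window B, whereas none of the searched words occurred in the Chro, M1BP or Trl windows. The Chro, CTCF, first mod(mdg4) and internal B windows do not contain their pooled summits, which lie downstream of the TSS. Words in these windows are therefore not words at the summit, and words around summits are given below.

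Of the 10 genes, 8 had a reproducible summit within 500 bp of a TSS, beside 28.0% of all coding genes (3905 of 13945). The 10 genes were chosen with earlier results of these data known. They also have more TSSs at which a summit counts, 1.90 each on average against 1.41 for coding genes. M1BP and mod(mdg4) had none. All 10 had a summit in the pooled list, which reached 55.2% of coding genes. All 10 also had one in each replicate list, beside 57.6, 51.9 and 57.3% of coding genes for replicates 1, 2 and 3, and 42.4% in all 3 lists. The replicate lists include background, so presence in them is a weak criterion. The plot of relative signal by replicate orders the genes by their strongest promoter summit.

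**Figure D1:**
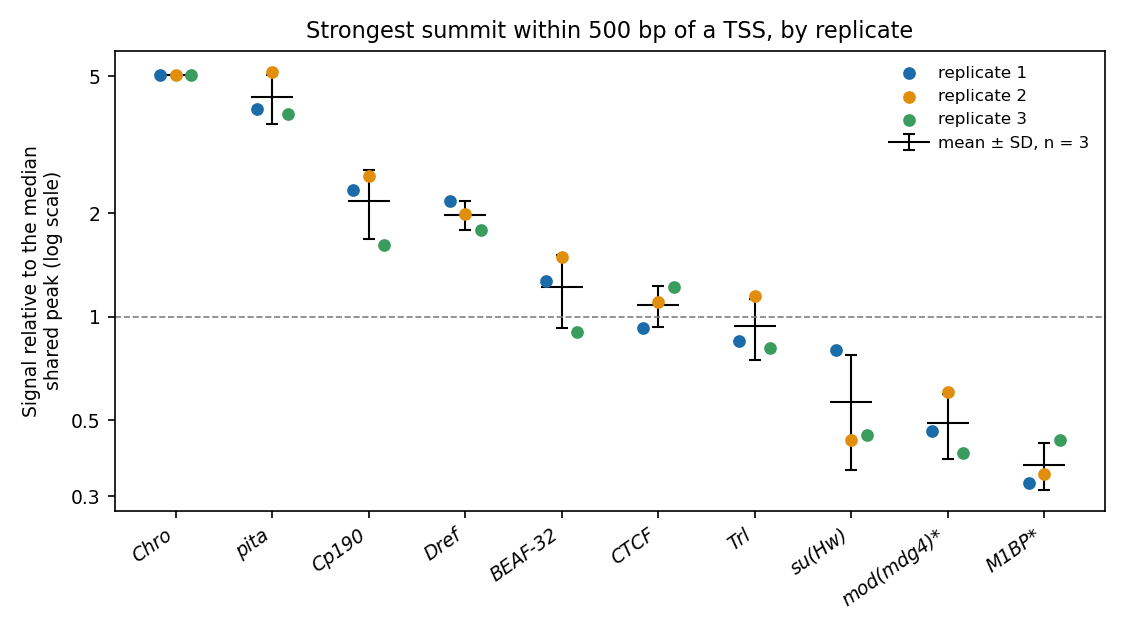
Strongest summit within 500 bp of a TSS of each gene, as signal relative to the median shared peak of the same replicate (log scale). Points are the 3 replicates, bars the mean ± SD, the dashed line the median shared peak, and asterisks mark the genes with no reproducible summit at a TSS; the means ran from 5.04 at Chro to 0.371 at M1BP.

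Among the cofactors, Chro carried the strongest promoter peak. Its mean was also the highest of the 10 genes, although pita was higher in replicate 2. Chro encodes Chromator, a chromodomain protein of interband chromatin that also associates with the mitotic spindle. Its signal was 326.9, 249.7 and 330.0 in replicates 1, 2 and 3, which ranked 84, 86 and 81 in those lists. The relative signal was 5.04 ± 0.00976 (SD, n = 3), so the replicates nearly coincided once scaled. In the pooled list the peak (3L, 22878731 to 22879085) had a signal of 896.4 and rank 80, above 97.1% of bound coding genes. The summit lay 82 bp downstream of the first TSS, in a non-coding part of an exon. It lay 187 bp upstream of the TSS of Ssl1, which encodes a subunit of the general transcription factor TFIIH, on the opposite strand. The start sites of Chro and Ssl1 face away from each other 105 bp apart, so the peak cannot be assigned to one promoter alone.

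Cp190 encodes a BTB and zinc finger protein brought to insulators by the DNA-binding factors. Its signal was 150.9, 126.8 and 106.2 in replicates 1, 2 and 3, with ranks of 274, 255 and 604. Replicate 3 was the lowest, and the relative signal was 2.17 ± 0.492 (SD, n = 3). The pooled peak (3R, 15275171 to 15275407; signal 364.3, rank 359) had its summit 78 bp upstream of the Cp190 TSS and 203 bp upstream of CG4338, a gene facing away from it. A weaker reproducible summit of 109.8, at rank 3784 close to the end of the reproducible set, lay 279 bp upstream of Cp190 and 2 bp upstream of CG4338.

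mod(mdg4) encodes a family of BTB proteins, one of which works with su(Hw) at the gypsy insulator. At its single annotated TSS the signal was 30.1, 29.9 and 26.3 in replicates 1, 2 and 3, and the relative signal 0.490 ± 0.104 (SD, n = 3). All 3 values lay below the median shared peak. The pooled summit 10 bp downstream of the TSS had a signal of 90.9 and rank 4804, outside the reproducible set. Its deposited −log10 q-value was 2.26, and those of the strongest replicate peaks were 1.83, 1.34 and 0.92 in replicates 1, 2 and 3.

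Of the DNA-binding insulator proteins, pita had the strongest promoter peak. pita encodes a zinc finger protein that recruits Cp190 to boundaries. The signal was 260.0, 255.0 and 254.6 in replicates 1, 2 and 3, with ranks of 99, 82 and 106. Replicate 2 was the highest once scaled, and the relative signal was 4.35 ± 0.704 (SD, n = 3). The pooled peak (2R, 23554499 to 23554876; signal 754.1, rank 92) had its summit 15 bp upstream of the first TSS, and no other gene had a TSS within 500 bp of it. A second reproducible summit, of 157.7, lay 253 bp downstream of an internal pita TSS but nearer to Dcp-1, 15 bp upstream of its TSS. Dcp-1 is an effector caspase gene that starts within the span of pita on the opposite strand.

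BEAF-32 and CTCF lay close to the median shared peak. BEAF-32, which encodes a boundary factor that binds CGATA words, had signals of 82.2, 73.5 and 59.2 in replicates 1, 2 and 3. Its relative signal was 1.22 ± 0.295 (SD, n = 3), with replicate 3 the lowest. The pooled peak (2R, 14770234 to 14770643; signal 191.3, rank 1481) had its summit 30 bp upstream of the first TSS and 169 bp upstream of the antisense RNA gene asRNA:CR42254. In replicate 3 the strongest summit lay instead at an internal TSS, 864 bp downstream of the first, and the peak at the first TSS had 43.7. With the first-TSS peak taken in every replicate, the relative signal was 1.14 ± 0.425 (SD, n = 3). The internal TSS had a reproducible summit of its own, with a pooled signal of 114.9.

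CTCF encodes the fly form of the zinc finger protein that shapes domain borders in many animals. Its signal was 60.2, 54.1 and 79.9 in replicates 1, 2 and 3, and its relative signal 1.08 ± 0.146 (SD, n = 3). Replicate 3 was the highest at CTCF, unlike at BEAF-32. The pooled peak (3L, 7356477 to 7356886; signal 190.5, rank 1496) had its summit 31 bp downstream of the TSS, and no other gene shared it.

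su(Hw) encodes the zinc finger protein that binds the gypsy insulator, and of the 8 bound genes it had the lowest signal and the summit farthest from a TSS. The signal was 52.0, 21.7 and 29.7 in replicates 1, 2 and 3, and the relative signal 0.565 ± 0.206 (SD, n = 3). The strongest summits lay 342 bp downstream of the TSS in replicate 1, 322 bp upstream in replicate 2 and 299 bp downstream in replicate 3. The replicate 2 summit lay 178 bp upstream of Polr2I, an RNA polymerase II subunit gene on the opposite strand. Replicate 2 also had a weaker summit of 14.2, at 332 bp downstream of the su(Hw) TSS, close to those of the other replicates. The pooled summit (signal 125.1, rank 3141) lay 487 bp downstream of the TSS, just inside the window. The replicate peaks that overlapped the pooled peak had signals of 52.0, 14.2 and 61.3, and a relative signal of 0.675 ± 0.343 (SD, n = 3). The replicate 3 peak of 61.3 had its summit more than 500 bp from the TSS, so it did not meet the rule. The deposited −log10 q-values of the strongest replicate peaks were 3.87, 0.53 and 1.27. The gene was not called with a window of 250 bp or when the peak interval itself had to cover the TSS.

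**Figure D2:**
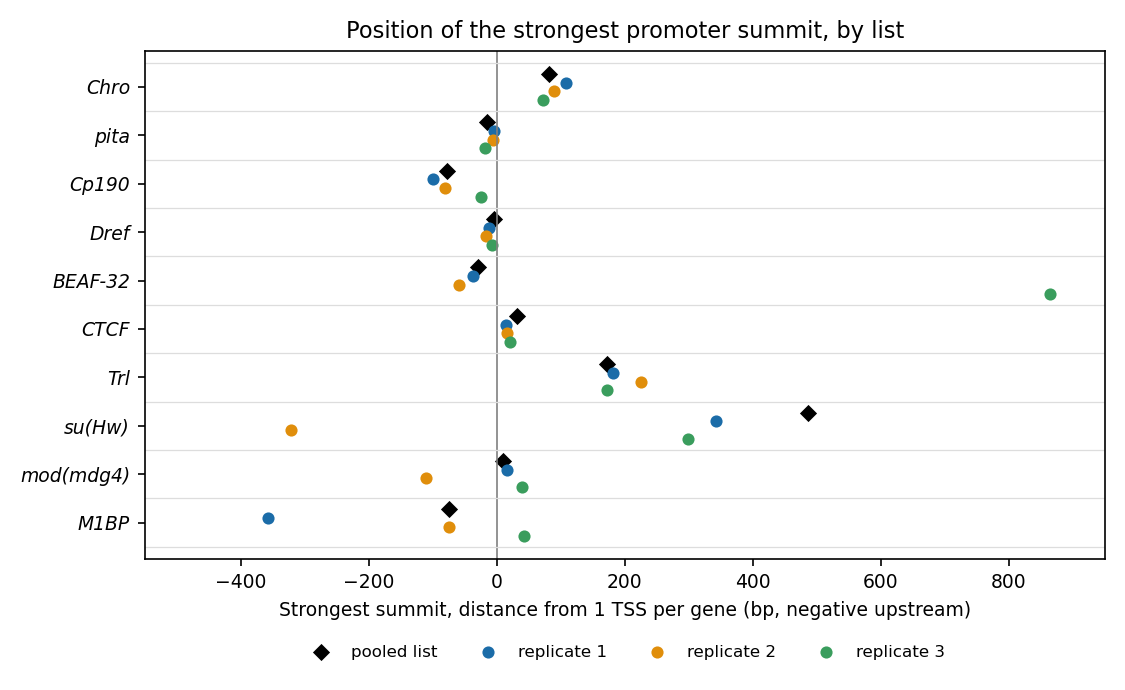
Position of the strongest summit near a TSS in the pooled list (diamonds) and in each replicate list (circles), as distance in bp from 1 TSS per gene, negative upstream. The 3 replicate summits of CTCF spanned 6 bp, whereas those of su(Hw) spanned 664 bp, with replicate 2 strongest upstream, and those of BEAF-32 923 bp, because replicate 3 was strongest at an internal TSS.

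Among the promoter factors, Dref stood highest. Dref encodes a factor of housekeeping promoters whose binding site, the DRE, holds TATCGATA. Its signal was 140.8, 98.5 and 117.1 in replicates 1, 2 and 3, and its relative signal 1.98 ± 0.193 (SD, n = 3). The replicates lay close together, with ranks of 318, 435 and 483. The pooled peak (2L, 9967198 to 9967330; signal 324.6, rank 440) had its summit 4 bp upstream of Dref and 80 bp upstream of RpL13, a ribosomal protein gene whose TSS lies 84 bp away and faces the other way. The word ATCGATAG shown above began 7 bp from the summit.

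Trl encodes the GAGA factor, which binds GA repeats at promoters and opens chromatin there. Its promoter signal was 54.9, 56.9 and 53.1 in replicates 1, 2 and 3, and its relative signal 0.937 ± 0.188 (SD, n = 3). The pooled peak (3L, 14756958 to 14757367; signal 168.1, rank 1901) had its summit 173 bp downstream of an internal TSS, and with the most upstream TSS alone Trl was not called. A stronger reproducible summit lay in an intron, 1532 bp upstream of the nearest TSS, which Trl shares with CG42507. Its signal was 179.1, 157.6 and 130.2 in replicates 1, 2 and 3, and its relative signal 2.65 ± 0.610 (SD, n = 3). The 3 intronic values did not overlap the 3 promoter values of the same gene. This comparison was not planned and was made with the pooled signals in view, so it is a description only.

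M1BP encodes the zinc finger protein that binds the promoter word Motif 1 and is known for paused genes. It had the lowest mean of the 10 genes, with signals of 21.3, 17.2 and 28.7 in replicates 1, 2 and 3 and a relative signal of 0.371 ± 0.0577 (SD, n = 3). The pooled summit 74 bp upstream of the TSS had a signal of 52.3 and rank 10099, and lay 319 bp upstream of CG8202 on the opposite strand. The strongest summits lay 357 bp upstream, 74 bp upstream and 43 bp downstream in the 3 replicates. All were shared with CG8202, and that of replicate 1 lay nearer to it, 36 bp upstream of its TSS. Their −log10 q-values were 0.75, 0.23 and 1.17.

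In the order of the means, 3 of the 9 neighbouring pairs had replicate values that did not overlap: pita above Cp190, Dref above BEAF-32, and Trl above su(Hw). The last of these rested on a small gap, 0.810 against 0.802. With the replicate peak overlapping the pooled peak taken instead, su(Hw) reached 0.936, Trl and su(Hw) overlapped, and 2 of the 9 pairs did not. The other 6 pairs overlapped, Chro and pita included, so their order is not resolved. No p-value is given. Even if taken as independent, 3 values against 3 cannot give a two-sided exact permutation p below 0.1. The values of neighbouring genes also come from the same 3 replicates, a pairing that the overlap of values does not use. Coefficients of variation over the replicates ran from 0.193% at Chro to 36.4% at su(Hw), beside a median of 19.7% over shared peaks.

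mod(mdg4) had 4 reproducible intronic summits, of 144.3 to 1149.6, a look chosen after the values were seen. Any reproducible summit exceeds the 90.9 at its annotated TSS, since the set begins at 109.3, and further pooled summits inside the gene had 43.4 to 76.6. Reproducible summits inside the gene and over 500 bp from its own TSSs occurred in 3 of the 10 genes (pita, mod(mdg4) and Trl), beside 4.24% of coding genes. Genes differ in length, and mod(mdg4), at 26556 bp, is the longest of the 10. The pita summit of this kind had a signal of 203.8 and lay 676 bp downstream of the first TSS.

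**Figure D3:**
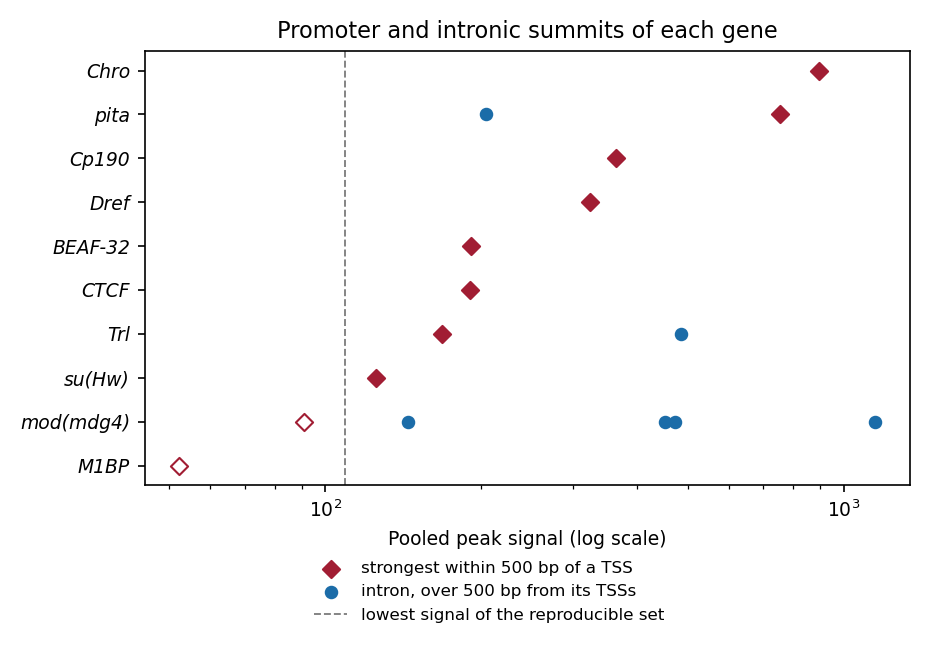
Pooled signal (log scale) of the strongest summit within 500 bp of a TSS (diamonds, open where outside the reproducible set) and of reproducible intronic summits farther than 500 bp from the gene's TSSs (circles). The dashed line marks the lowest reproducible signal, 109.3; mod(mdg4) falls below it at its TSS with 90.9 and reaches 1149.6 in an intron.

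mod(mdg4) is known for trans-splicing, in which shared first exons are joined to 3′ exons transcribed from separate internal promoters, some on the opposite strand. The annotation lists 23 such precursor units, named pre-mod(mdg4), which start at 7 TSSs inside the gene. A reproducible summit lay within 500 bp of 6 of these 7 TSSs, and every one of the 23 units had one at some TSS, beside 28.0% of coding genes. These rest on 3 peak intervals, since units share TSSs and neighbouring TSSs share summits, so the units are not separate observations. The units are annotated as separate coding genes and are counted among the 13945.

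The strongest summit lay 17592 bp downstream of the annotated mod(mdg4) TSS and 41 bp upstream of the TSS shared by 8 units (B, G, H, I, J, K, L and P). Its signal was 471.6, 324.1 and 417.8 in replicates 1, 2 and 3, with ranks of 61, 67 and 66. The relative signal was 6.74 ± 0.476 (SD, n = 3), and its lowest value, 6.37, was above the highest at the Chro promoter, 5.05. The pooled signal was 1149.6, at rank 62. The same interval (3R, 21359507 to 21360231) held a second summit of 473.2, 164 bp upstream of the units T and Z on the opposite strand. Both summits matched 1 peak in each replicate, so their replicate values are not separate measurements.

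A further summit (signal 452.8, rank 218) lay 5 bp downstream of a TSS of unit E, near TSSs of units on both strands, and had a relative signal of 2.57 ± 0.149 (SD, n = 3). A weaker summit (144.3, rank 2476) lay 12 bp upstream of units AA, N and O, with 0.760 ± 0.0731 (SD, n = 3). The remaining TSS, of units U and V on the opposite strand, had no summit within 500 bp in the pooled list either. Those 2 units have a further TSS with a summit.

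**Figure D4:**
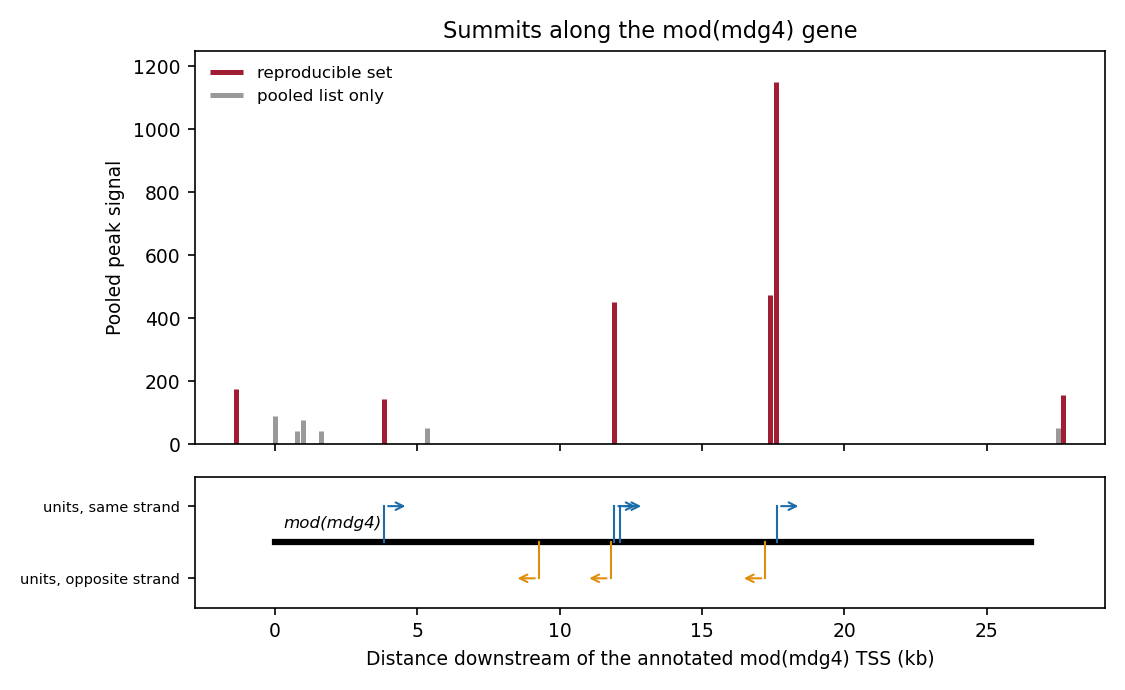
Pooled peak signal at each summit along mod(mdg4), by distance in kb downstream of its annotated TSS, with the TSSs and direction of the internal precursor units below. The summit of 1149.6 stands beside the TSSs of units on both strands, while the first TSS at 0 kb carries 90.9.

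At the shared promoters the partner cannot be left aside. The strongest summit of 3 of the 8 bound genes (37.5%: Chro, Cp190 and Dref) also lay within 500 bp of a TSS of another coding gene, beside 62.5% of bound coding genes. The strongest summits of pita, su(Hw), CTCF and Trl had no other annotated gene there, and that of BEAF-32 had a non-coding one. The median position of the strongest summit was 13.5 bp downstream of the nearest TSS of the bound gene for the 8 genes and 75.0 bp upstream for all bound coding genes.

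TATCGATA or ATCGATAG stood within 250 bp upstream to 50 bp downstream of a TSS in 6 of the 10 genes (60.0%): BEAF-32, CTCF, Cp190, mod(mdg4), pita and Dref itself. The same held for 8 of 18 other insulator genes (44.4%), 26.3% of the 19 other promoter-binding factor genes, 13.5% of coding genes and 27.6% of bound coding genes. The 10 genes have more TSSs to search, 1.90 each on average against 1.41 for coding genes and 1.64 for bound coding genes. The other insulator genes have 1.39 and the other promoter-binding factor genes 2.16. TATCGATA is its own reverse complement, and both words were searched on both strands. mod(mdg4) carried them at its annotated promoter, where it had no reproducible summit, and Chro did not carry them.

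Within 50 bp of the strongest summit, 1 of the 8 bound genes held any of the 9 searched words, ATCGATAG at Dref, beside 32.0% of all reproducible summits. That word occurred within 50 bp of 8.15% of reproducible summits and in 7.37% of coding promoters. Within 100 bp, 5 of the 8 genes (62.5%) held a word, beside 47.7% of reproducible summits: pita, Cp190, Dref, su(Hw) and CTCF. At Cp190 and CTCF the words TATCGATA and ATCGATAG formed 1 overlapping run. The words of M1BP (GGTCACAC), Trl (GAGAGAG), ZIPIC (CAGGGCTG), part of the su(Hw) site (TGCATAC) and part of the CTCF site (AGGNGGC) did not occur within 100 bp of the strongest promoter summit of any of the 8. Each of them occurred within 100 bp of between 3.33 and 10.1% of all reproducible summits. In coding promoters these words occurred in 6.73, 7.65, 2.04, 3.29 and 8.75%, in that order. Some did occur in promoters of the 10 genes, 250 bp upstream to 50 bp downstream of a TSS. There GAGAGAG stood at Trl and pita, GGTCACAC at su(Hw) and AGGNGGC at Chro, while CAGGGCTG and TGCATAC stood at none. CANCNCTA, present within 100 bp at su(Hw) and CTCF, stood in 14.6% of coding promoters and within 100 bp of 16.7% of reproducible summits. TATCGATA stood within 100 bp of 12.2% and ATCGATAG of 11.8%.

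AACAGCAC occurred within 50 bp of none of the 8 promoter summits but at the strongest mod(mdg4) summit, as shown above. It was found within 50 bp of 1.97% of reproducible summits and in 1.56% of coding promoters. By rank it stood at 46 of the 100 strongest summits and at 29 of the other 3714 (0.781%). The words were chosen with earlier results of these data known, so this contrast is not an independent result. Chro and pita, at ranks 80 and 92, were among the summits of the first class without it.

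The wider pathway was followed in 2 further lists. Of 18 other insulator and domain-border genes, 8 had a reproducible summit at a TSS (44.4%, beside 28.0% of coding genes). They were Top2 (pooled signal 373.1), which encodes DNA topoisomerase II, fs(1)h (355.8), the fly BET bromodomain protein, Cap-H2 (210.4) of condensin II, pzg (190.1), dwg (172.2), which encodes the Zw5 insulator protein, SMC1 (162.6) of cohesin, ZIPIC (130.4) and l(3)mbt (124.0). Some of these summits were shared with another gene: fs(1)h with mys, Cap-H2 with MED7, pzg with CG12974 and l(3)mbt with CG5934. With each summit given to its nearest TSS only, 5 of the 18 were bound. Ibf1, Ibf2, Elba1, Elba2, insv, JIL-1, vtd, SMC3, Nipped-B and Clamp had no reproducible summit at a TSS.

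Of 19 other promoter-binding factor genes, 13 had a reproducible summit at a TSS (68.4%, beside 28.0% of coding genes). These 19 genes have 2.16 TSSs each on average, against 1.41 for coding genes. The strongest were nsl1 (712.7), a subunit of the NSL complex, phol (598.4), a DNA-binding Polycomb group protein, and cg (539.5), the zinc finger protein Combgap. Nf-YB (316.5), Adf1 (282.4), Spps (204.7), MBD-R2 (170.2), lola (163.3) and E2f1 (161.8) followed, and Nf-YA (139.2), Max (131.5), Trf2 (116.9) and psq (114.1) were the weakest. Shared summits were those of phol (with CG3552 and asRNA:CR45873), cg (mRpS16), Nf-YB (CG10462), Adf1 (Dpit47), Spps (CG13609), Nf-YA (Bet3) and Max (CG42374 and Mettl5). With the nearest TSS only, 10 of the 19 were bound. The factors zld, pho, Dsp1, ttk, grh and Tbp had no reproducible summit at a TSS. The median strongest signal of the bound genes was 257.9 for the 8 genes described here, 181.1 for the other insulator genes, 170.2 for the other promoter-binding factor genes and 179.3 for all bound coding genes.

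**Figure D5:**
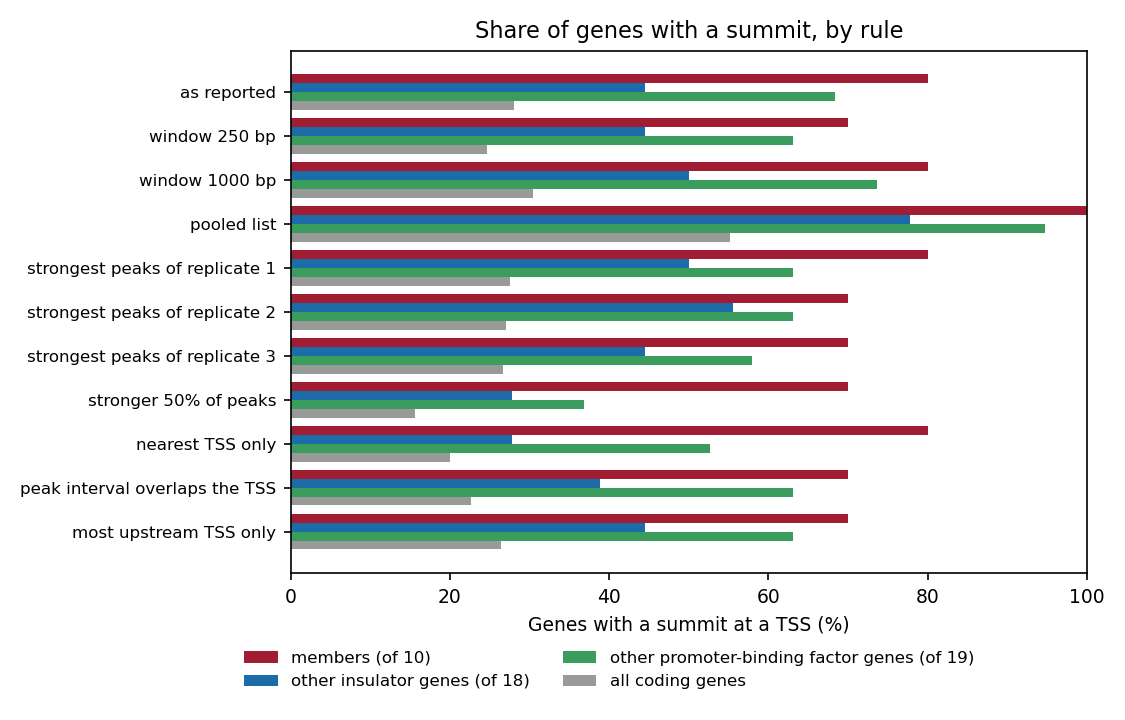
Percent of genes with a summit at a TSS under the rule as reported and under each other rule, for the 10 genes, the other insulator genes, the other promoter-binding factor genes and all coding genes. The 10 genes kept a share of at least 70.0% under every rule shown, while coding genes ranged from 15.6 to 55.2%.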

How the data were processed

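Peak lists in narrowPeak layout were used for 3 replicates, their pooled reads and the thresholded reproducible set, all on dm6. Per the read-me tables deposited with the samples, relaxed lists of peaks and background were called against a control alignment, and an irreproducible discovery rate procedure gave the thresholded list. Which aligner, caller, versions and threshold were used is not given in the sources used. Signal (column 7) and the −log10 q-value (column 9) are as the authors deposited them. No read counts were used, so depth and counting error are unknown. Lists on the older build were not used.

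TSSs came from Ensembl release 115 (FlyBase 6.54). For each replicate the strongest summit within 500 bp of a TSS was taken and divided by the median of that replicate over shared peaks, which overlapped by at least 1 bp. Summits of a gene in its introns used the strongest overlapping replicate peak. Words were sought around summits (50 bp to either side, both strands) and in promoters. Tools were Python 3.11.15, pandas 2.3.3, numpy 2.4.6 and matplotlib 3.10.9, and the distance code was checked on simulated data. Alternatives changed the window, list, threshold, TSS set, scaling and replicates. Named genes were all 10 genes, every gene sharing a reproducible summit with them, and each bound gene of 2 further lists with the genes sharing its summit. The symbol SA had no single match, leaving 18 of 19 insulator genes. Members, lists and words were chosen with earlier results of these data known, so no test was made.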

Additional observations from a re-analysis of the deposited data

How the results depend on the processing

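The count of 8 bound genes ranged from 7 to 10 over 11 other rules. su(Hw) was lost with a window of 250 bp, among the stronger 50% of peaks, among the strongest peaks of replicates 2 and 3, and when the interval had to cover the TSS; Trl was lost with the most upstream TSS only. The pooled list added M1BP and mod(mdg4), and counting the precursor TSSs added mod(mdg4), giving 9; this rule and the most upstream TSS were chosen after seeing the data. In the pooled list 14 other insulator genes and 55.2% of coding genes were bound; among the stronger 50% of peaks 5 other insulator genes, 7 other promoter-binding factor genes and 15.6% were. With the nearest TSS only, 5 other insulator genes were bound. The number of bound genes with a searched word near the summit went from 1 to 5 with a window of 100 bp.

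Dividing by the median of all peaks of a list raised relative signals to between 1.26 (M1BP) and 17.1 (Chro), by the construction of the scale, and left the order unchanged. Without replicate 1, mod(mdg4) stood above su(Hw), and without replicate 2, Dref above Cp190. With the replicate peak overlapping the pooled peak, the order held, and 2 in place of 3 neighbouring pairs did not overlap, since Trl and su(Hw) then did. The reproducible set could not be derived again without a replicate. With only 1 group, no paired comparison of groups was possible. Genes and summits were read in the same 3 replicates, and the overlap of their values does not use that pairing.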

Other observations

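Reproducible summits within 2000 bp of these genes also marked promoters of neighbours, read here as values only. Upstream of mod(mdg4), a summit of 176.1 lay 214 bp upstream of tin, which encodes the heart and mesoderm homeodomain protein Tinman, with a relative signal of 0.990 ± 0.254 (SD, n = 3). Upstream of Trl, 1 of 138.3 lay 1 bp upstream of Mgat4a, a glycosyltransferase gene, with 0.816 ± 0.167. Downstream of pita, 1 of 242.3 lay 67 bp upstream of wmd, with 1.33 ± 0.306, and upstream of pita 1 of 127.6 lay 51 bp downstream of the TSS of Rrp4, an exosome subunit gene, with 0.677 ± 0.190. Downstream of Chro, 1 of 139.8 lay 3 bp upstream of CG11109, with 0.723 ± 0.291. Summits of 137.9 beyond Cp190, 131.8 beside BEAF-32 and 157.6 beyond mod(mdg4) were nearest to the TSSs of Zip88E, Spred and aus.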
